A study of Caenorhabditis elegans with 78 samples.

Results

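The stable H3K9me2 regions on the arms of chromosome IV are stretches of the Caenorhabditis elegans genome in which a peak of histone H3 dimethylated at lysine 9 was called in every H3K9me2 library of the series. Overlapping peaks of 16 H3K9me2 peak lists were merged, and a merged region was kept when a peak of each of the 16 lists overlapped it by at least 1 bp. Its midpoint had to lie below 5.25 Mb of chromosome IV (left arm) or above 12.25 Mb (right arm). This gave 502 regions, 350 on the left arm and 152 on the right arm, out of 3307 regions called in all 16 lists and 16691 merged regions in the genome. The H3K9me2 calls themselves chose the regions, so their number, width and place are descriptions without a test. A region without a peak in 1 or more libraries was left out. Comparisons of H3K9me2 between genotypes or temperatures therefore cannot show a complete loss, only a change in length where a peak remained.

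The libraries were chromatin immunoprecipitation sequencing (ChIP-seq) samples of starved first-stage (L1) larvae. They came from wild type (N2) at 20 and at 26 °C, and at the same temperatures from a lin-15B(n744), a lin-35(n745) and a lin-37(n758) strain. Each of the 8 groups had 2 libraries for H3K9me2 and 2 for H3K4me3 (histone H3 trimethylated at lysine 4), which makes 4 libraries of each mark for a genotype. The 26 °C larvae were the progeny of cultures moved from 20 °C as fourth-stage larvae. Whole larvae were used, so every value averages over all tissues. Each genotype was compared as it stands, with 1 allele for each mutant. The labels did not say that replicates were separate cultures, and p-values therefore measure the spread between libraries, which may be technical.

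H3K9me2 is a mark of repressed chromatin. In C. elegans it is laid down largely by the methyltransferase MET-2 and is concentrated on the repeat-rich arms of the autosomes, parts of which lie at the nuclear periphery. LIN-35, the worm homologue of the retinoblastoma protein, and LIN-37 belong to the DREAM repressor complex. LIN-15B is a THAP-domain protein known, like them, to keep germline genes off in somatic tissue. H3K4me3 marks the promoters of active genes, and its peaks were not used to choose the regions. The H3K9me2 calls set the width of each region, and so the room for an H3K4me3 overlap.

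The H3K9me2 lists held between 7420 and 13766 peaks and covered between 7535 and 13257 kb. The H3K4me3 lists held between 5421 and 8412 peaks. The lists carry no read counts, so sequencing depth is unknown, and a missing peak means that no peak was called. The H3K9me2 list of lin-15B at 20 °C, replicate 1, stood apart. Its peak names gave a q cutoff of 0.05, against 0.01 in the other 15 lists, and its lowest peak score was 22.3, against 34.7 to 63.3 elsewhere. Of 104 arm regions on chromosome IV called in 15 lists, 50 were missing in that library only, and 21 were missing in lin-35 at 26 °C, replicate 2, only. Without that lin-15B list the rule would have kept 374 left-arm and 179 right-arm regions.

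The left arm carried more, wider and more closely spaced stable regions than the right arm, although the arms were of nearly equal length (5.25 and 5.24 Mb). There were 66.7 stable regions per Mb on the left arm and 29.0 per Mb on the right. Of all merged regions on each arm, 29.2% (350 of 1199) were called in all 16 lists on the left and 19.4% (152 of 783) on the right. On the arms of the other autosomes, taken as the outer 30% at each end, the number per Mb ran from 55.2 to 78.5 on 7 of 8 arms, and the left arm of V had 226 on 6.28 Mb. The right arm of IV thus had fewer stable regions per Mb than any of the 8 other arms described, and the left arm lay within their range. The centre of IV had 58 stable regions, or 8.29 per Mb.

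The left-arm regions were not spread evenly. Counted in bins of 0.5 Mb from the chromosome end, their number rose from 15 in the outermost bin to 57 between 2.5 and 3.0 Mb and fell to 9 between 4.5 and 5.0 Mb. On the right arm the number in those bins stayed between 11 and 18. Covered length, the number of bases of a region under H3K9me2 peaks, was highest on the left between 2.0 and 2.5 Mb from the end, with 157 kb, and on the right between 0.5 and 1.0 Mb, with 46.5 kb, each as the mean of 16 libraries. The gap between neighbouring stable regions had a median of 3900 bp on the left and 18466 bp on the right. Gaps over 100 kb numbered 3 on the left and 12 on the right. All 3 of the left-arm ones lay in its inner part, and the longest ran from chrIV:4978010 to chrIV:5221388 on build ce10.

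**Figure D1:**
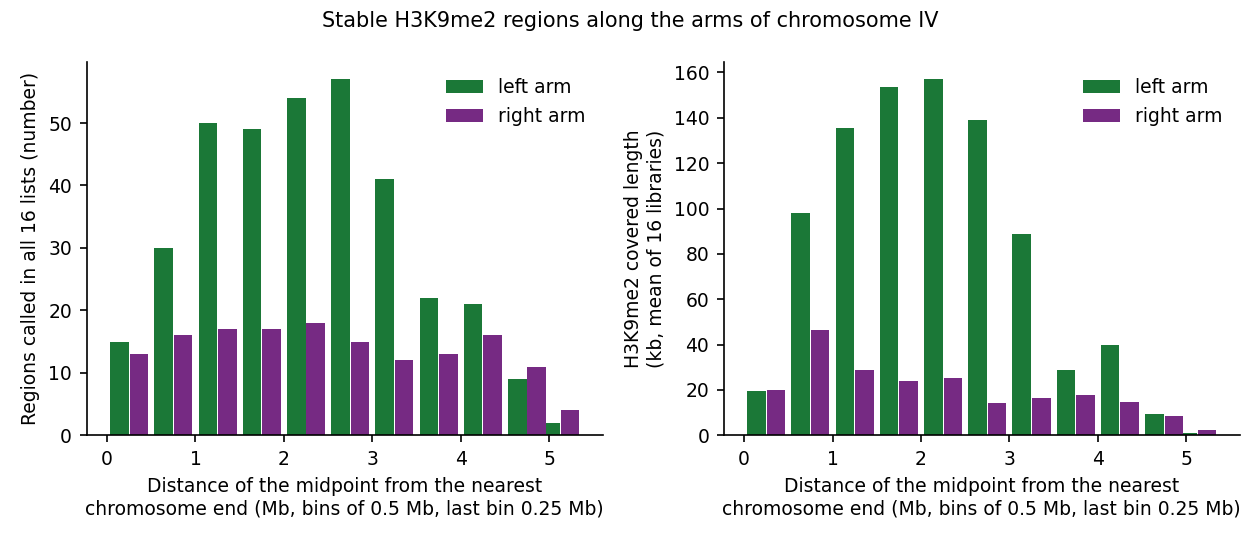
Number of stable regions (left panel) and their mean H3K9me2 covered length in kb over 16 libraries (right panel), by distance of the region's midpoint from the nearest chromosome end in bins of 0.5 Mb. The left arm peaks between 1 and 3 Mb from its end, with up to 57 regions a bin, while the right arm holds 11 to 18 regions in each bin out to 5 Mb.

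Region widths ran from 314 to 29982 bp with a median of 2863 bp on the left arm, and from 316 to 19446 bp with a median of 1708 bp on the right. Regions over 5 kb made up 23.1% of the left-arm regions (81) and 9.21% of the right-arm regions (14). Regions under 1 kb made up 12.6% (44) and 27.6% (42). A region was often broken into several peaks within a library, but 111 left-arm and 86 right-arm regions were a single peak in each of the 16 lists.

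The extent of the regions varied between libraries. Of the 1687 kb spanned by the 502 regions, 32.2% lay under a peak in all 16 libraries (33.4% on the left and 27.7% on the right). In 32 regions, 17 left and 15 right, no single base was under a peak in every library. The coefficient of variation of a region's covered length over the 16 libraries had a median of 25.7% on the left and 31.0% on the right.

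The 5 regions with the longest mean cover on the left arm varied less between libraries than the median region. On the left arm, chrIV:2209953-2239934 (29982 bp wide) had a mean covered length of 21948 bp ± 2281 (SD, n = 16), and chrIV:1178794-1204157 (25364 bp wide) had 21114 bp ± 1595 (SD, n = 16). In the second of these, 16203 bp were under a peak in all 16 libraries. The next 3 on the left arm were chrIV:962086-984945, chrIV:1956673-1973791 and chrIV:2649853-2664384, with means between 11787 and 19345 bp and coefficients of variation between 7.62% and 9.12%. On the right arm, chrIV:16488689-16508134 (19446 bp wide) had 12460 bp ± 1849 (SD, n = 16), and chrIV:16414824-16426574 had 7942 bp ± 1780 (SD, n = 16). The 5720 bp region chrIV:17008562-17014281 was the most uniform of the 5 longest on the right arm, with 4898 to 5700 bp covered in every library.

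These domains differed in H3K4me3. Both regions near 12 and 8 kb of cover on the right arm, and the longest one on the left, had H3K4me3 peaks in all 16 H3K4me3 libraries. The 25364 bp left-arm domain had one in 3 of 16 libraries, with a mean of 68.2 bp covered, and the uniform 5720 bp right-arm region had one in none.

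Peak scores were used only as ranks within a list, because the deposited columns did not settle which score each holds. The highest-scored peak of a region had a median rank percentile of 75.4 on the left and 71.0 on the right, averaged over libraries. The 5 highest mean ranks on the left arm ran from 98.0 to 98.9 and on the right arm from 95.8 to 98.7. High rank did not need great width. On the right arm chrIV:14531424-14532968 (1545 bp) and chrIV:13460821-13461636 (816 bp) both had a mean rank percentile of 98.7, and on the left chrIV:1233485-1236305 (2821 bp) had 98.9. Of these 10 regions, 5 from each arm, 1 (chrIV:786897-796306) had H3K4me3 in all 16 libraries.

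At the limits of the rule, the innermost left-arm region inside was chrIV:5224999-5225671, and the first outside was chrIV:5272973-5274446, which had 489 and 1315 bp covered on average. On the right arm chrIV:12297316-12298478 lay just inside and chrIV:12164637-12165035 just outside, with 462 and 290 bp. The regions called in 15 of 16 lists, 61 on the left and 43 on the right, had a median mean covered length of 569 and 517 bp. The longest of them were chrIV:2083206-2090108 on the left, with a mean of 2104 bp and no peak in lin-35 at 26 °C, replicate 1, and chrIV:12802347-12805474 on the right, with 1533 bp and no peak in lin-35 at 26 °C, replicate 2.

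The total H3K9me2 covered length of the 502 regions was not shown to differ between genotypes or temperatures. Regions that lost their peak in any library are not among the 502, so this comparison leaves such losses out. In wild type it was 1151 and 1301 kb at 20 °C and 1122 and 909 kb at 26 °C, replicates in order. In lin-15B it was 916 and 1135 kb at 20 °C and 1150 and 1047 kb at 26 °C. In lin-35 it was 1071 and 1180 kb, then 1106 and 1072 kb, and in lin-37 1204 and 973 kb, then 1046 and 1050 kb. The highest and the lowest of the 16 values were both wild type, and every mutant's libraries lay between them. Means were 1121 kb ± 161 in wild type, 1062 kb ± 107 in lin-15B, 1107 kb ± 51.0 in lin-35 and 1068 kb ± 97.2 in lin-37 (SD, n = 4 each).

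Two-sided exact permutation tests of each mutant against wild type gave p between 0.571 and 0.8286 for covered length. Adjusted over the 12 mutant tests of 4 measures (Benjamini-Hochberg) every p was 0.686 or higher. The smallest p that 4 against 4 libraries allow is 0.0286, which alone cannot pass adjustment over 12 tests. The 8 libraries at 26 °C had 1063 kb ± 73.2 and the 8 at 20 °C 1116 kb ± 125 (SD, n = 8 each; exact permutation within genotype, p = 0.356, adjusted over 4 tests 0.475). Without wild type at 20 °C, replicate 2, the 3 mutants' differences from wild type in covered length turned from negative to +0.961, +46.4 and +7.27 kb.

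**Figure D2:**
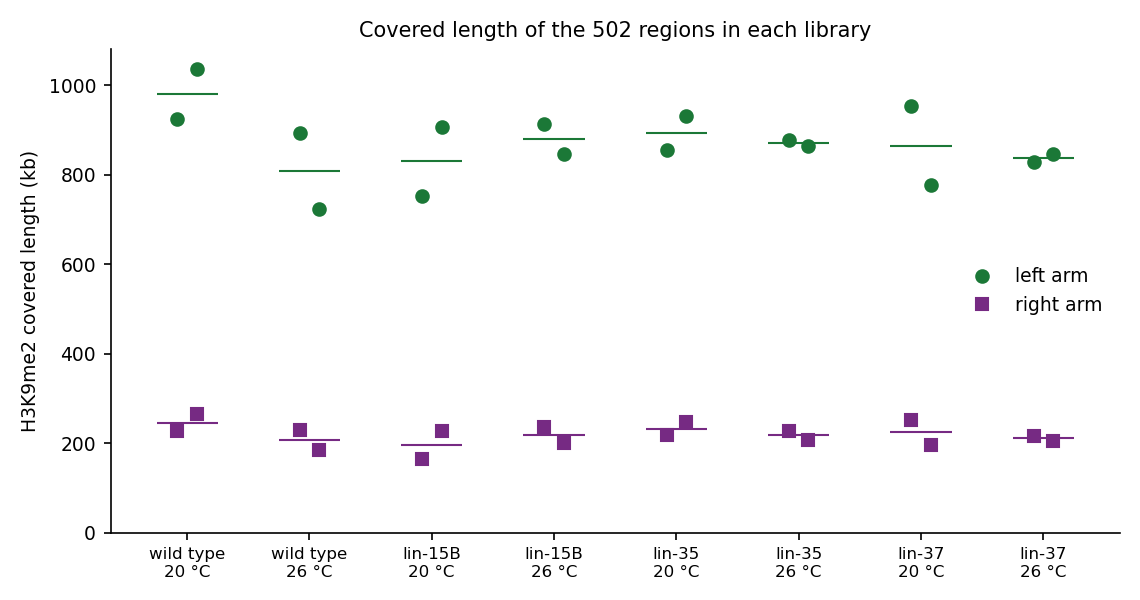
H3K9me2 covered length in kb of the left-arm (circles) and right-arm (squares) regions in each of the 16 libraries, by genotype and temperature; short lines are the means of 2 libraries. Left-arm totals lie between 724 and 1036 kb and right-arm totals between 164 and 264 kb, and the genotypes overlap.

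The division between the arms was nearly constant. The left arm held 79.8% ± 0.33 of the covered length in wild type, 79.7% ± 0.62 in lin-37, 79.7% ± 0.73 in lin-35 and 80.6% ± 1.16 in lin-15B (SD, n = 4 each). Over all 16 libraries the left arm had 3.99 ± 0.21 times (SD) the covered length of the right arm, with a range from 3.76 to 4.60. The highest ratio belonged to the lin-15B library with the other q cutoff. Per Mb of arm, that came to 166 kb ± 14.95 on the left and 41.8 kb ± 4.90 on the right (SD, n = 16).

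As a share of all H3K9me2 covered bases in a list, the 502 regions held 12.0% ± 0.52 in wild type, 11.8% ± 1.12 in lin-35, 11.6% ± 0.78 in lin-37 and 10.2% ± 1.21 in lin-15B (SD, n = 4 each). The 4 lin-15B shares were 11.5, 8.56, 10.3 and 10.3%, and the lowest wild-type share was 11.5%, so the groups overlapped only at that value (exact permutation, p = 0.0571, adjusted p = 0.686). The lin-15B lists were also longer in total, with 10642 kb ± 2202 against 9397 kb ± 1565 in wild type. The part that list length plays in this share was not tested.

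Single regions did change in lin-15B. The log2 covered length of all 3307 stable regions was fitted with limma after centring each library on its median. In lin-15B 31 of the 502 regions were shorter (6.18%) and 10 longer (1.99%) at an adjusted p below 0.05. Over all stable regions the shares were 5.05% shorter and 3.75% longer. Of the shorter ones 18 were on the left arm (5.14% of its regions) and 13 on the right (8.55%). The median log2 difference of the 502 regions was -0.11, beside -0.05 over all stable regions. Without the lin-15B library with the other cutoff, 45 were shorter and 15 longer. Without wild type at 20 °C, replicate 1 or 2, or lin-15B at 26 °C, replicate 1, the shorter ones fell to 19, 18 and 18, and the longer ones to 6, 5 and 6. Without lin-15B at 26 °C, replicate 2, 6 were longer. The shares of all stable regions in these reduced fits are not given here. The counts therefore show only how far the number of calls moved.

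The region chrIV:2664910-2671921 (7012 bp, left arm) had the smallest adjusted p. Its covered length was 7012, 4857, 5180 and 4449 bp in wild type and 1426, 1299, 1339 and 1554 bp in lin-15B. The groups were far apart, and lin-35 (3325 to 4876 bp) and lin-37 (2302 to 4586 bp) lay between them or at the wild-type values. The log2 difference in lin-15B was -1.93 ± 0.23 (SE; limma, adjusted p = 0.000184). H3K4me3 went the other way there. Its covered length was 2147, 1940, 2652 and 2380 bp in wild type and 4719, 5214, 4291 and 5447 bp in lin-15B, again without overlap.

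The region chrIV:15009519-15012723 (3205 bp, right arm) had a larger difference. H3K9me2 covered 2522, 3100, 2486 and 1535 bp of it in wild type and 370, 289, 167 and 513 bp in lin-15B, a log2 difference of -2.93 ± 0.36 (SE; limma, adjusted p = 0.000218). No H3K4me3 peak was called there in the 4 wild-type libraries, while 1334, 1719, 2337 and 2345 bp were covered in lin-15B. In lin-35 and lin-37 H3K4me3 was called in both 26 °C libraries and in neither 20 °C library.

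Another region of this kind was chrIV:17089099-17090829 (1731 bp, right arm). H3K9me2 covered 1685, 1516, 1368 and 1064 bp in wild type and 406, 137, 352 and 376 bp in lin-15B (log2 difference -2.257 ± 0.34, SE; limma, adjusted p = 0.00122). H3K4me3 was again absent from the 4 wild-type lists and covered 756, 1413, 1208 and 1219 bp in lin-15B. The other 2 of the 5 smallest adjusted p differed in H3K4me3. At chrIV:15032571-15034238, where H3K9me2 fell by 1.62 on the log2 scale, no library of either genotype had an H3K4me3 peak. At chrIV:13207626-13209675, where it fell by 1.95, 2 of 4 lin-15B libraries had one. The adjusted p of these 5 regions stayed between 8.72e-05 and 0.00731 under every alternative in which they were fitted.

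**Figure D3:**
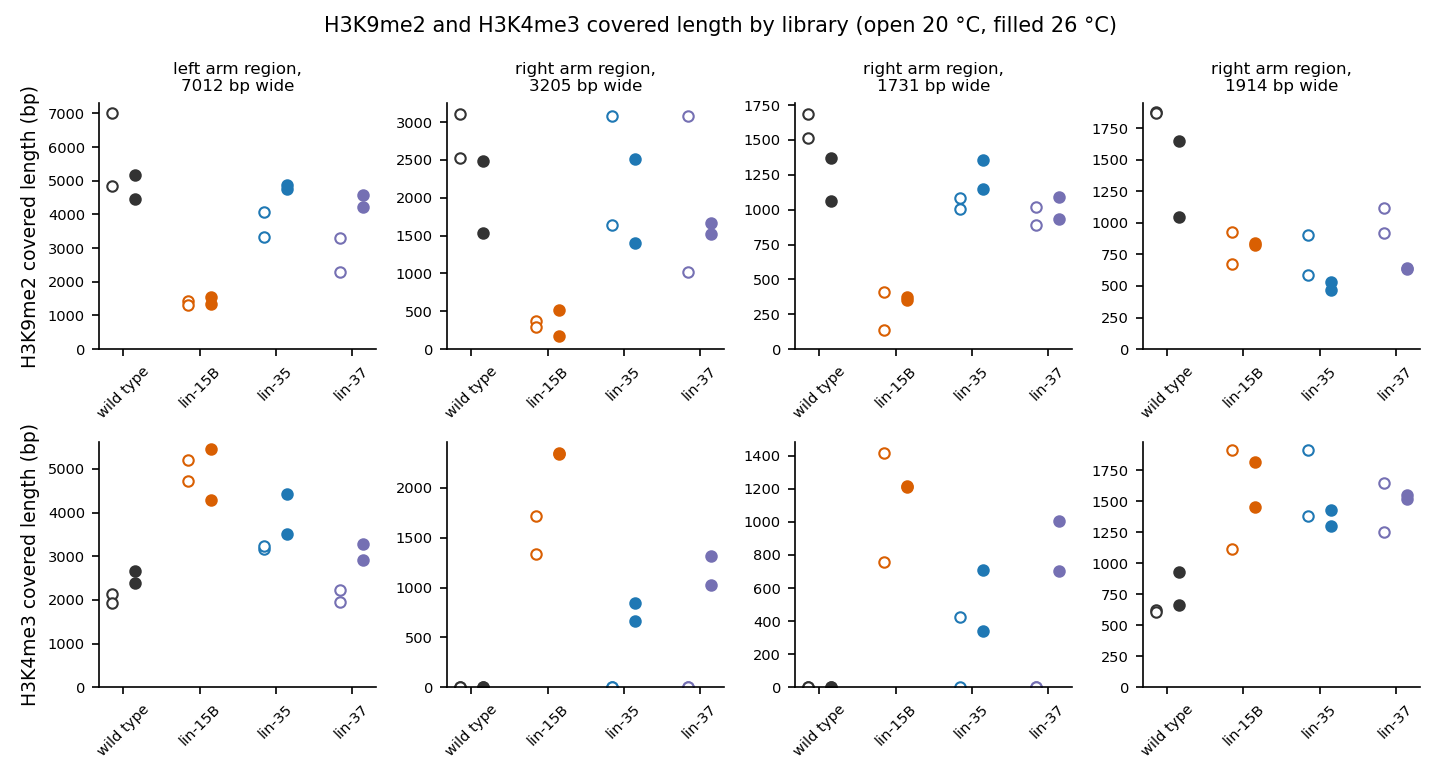
H3K9me2 (top) and H3K4me3 (bottom) covered length in bp, per library, at 4 regions named by their width and arm; open circles are 20 °C and filled circles 26 °C. The first 3 were taken from the 5 smallest adjusted p in lin-15B (limma) because more than 4 libraries had H3K4me3 there. The others of those 5 had H3K4me3 in 0 and 2 libraries. In the first 3 regions the lin-15B libraries lie below all others for H3K9me2 and above all wild-type libraries for H3K4me3. In the fourth all mutant libraries but 1 lie below the lowest wild-type H3K9me2 value.

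Across the 31 regions that were shorter in lin-15B, H3K4me3 was common. A peak was called in 1 or more of the 16 H3K4me3 libraries at 26 of them (83.9%). The count was 161 of the 461 regions called neither shorter nor longer (34.9%), and 4 of the 10 that were longer. The same shares over all stable regions were 71.3% of those shorter, 37.4% of those not called and 22.6% of those longer. At 10 of the 31 the H3K4me3 length of every lin-15B library exceeded that of every wild-type library. That was so for 31 of all 502 regions (6.18%) and for 4.51% of all stable regions. None of the 502 had the reverse order, beside 0.121% of all stable regions. The list of regions was chosen on the H3K9me2 difference of the same genotypes, and no test of these counts was made.

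**Figure D4:**
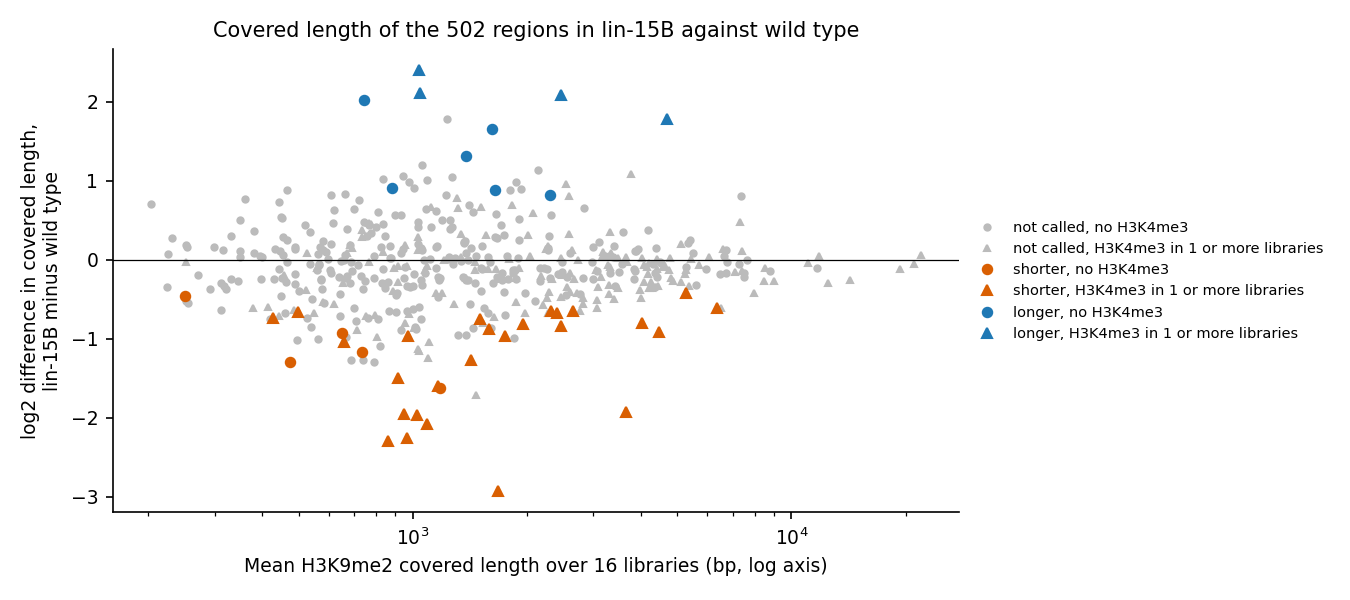
Log2 difference in H3K9me2 covered length, lin-15B minus wild type, for the 502 regions against their mean covered length over 16 libraries in bp (log axis). Orange and blue mark the 31 shorter and 10 longer regions, and triangles mark regions with an H3K4me3 peak in 1 or more of 16 libraries; 26 of the 31 shorter regions are triangles.

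In lin-35 2 of the 502 regions were shorter (background 0.605%) and 0 longer (background 0.272%), and in lin-37 2 were shorter (background 0.484%) and 0 longer (background 0.302%). At an unadjusted p below 0.05 (limma) there were 22 longer (4.38%, against 4.90% of all stable regions) and 29 shorter (5.78%, against 6.11%) in lin-35. In lin-37 there were 19 longer (3.78%, against 3.96%) and 27 shorter (5.38%, against 5.14%), all near the share over all stable regions. One region, chrIV:17119086-17120999 (1914 bp, right arm), was shorter in all 3 mutants. H3K9me2 covered 1877, 1875, 1646 and 1048 bp in wild type, 632 to 1118 bp in lin-37, 470 to 905 bp in lin-35 and 674 to 931 bp in lin-15B. Only 1 lin-37 library reached the lowest wild-type value. The log2 difference was -1.39 ± 0.20 in lin-35 (SE; limma, adjusted p = 0.00184) and -0.95 ± 0.20 in lin-37 (adjusted p = 0.0363). H3K4me3 was present there in all 16 libraries, over 605 to 933 bp in wild type and 1116 to 1914 bp in the 12 mutant libraries. The 3 mutants share their wild-type libraries, so these are not separate observations.

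The remaining calls were chrIV:1841716-1846976 in lin-35 (-1.07 ± 0.22, SE; limma, adjusted p = 0.0248) and chrIV:1737800-1741525 in lin-37 (-1.23 ± 0.27, adjusted p = 0.0481), both on the left arm and both with H3K4me3 in all 16 libraries. In the 16 fits that each left out 1 library, the lin-35 call was lost in 5, with adjusted p up to 0.098, and this lin-37 call in 11, with up to 0.169. The lin-37 call at chrIV:17119086-17120999 was lost in 9 of 16, with up to 0.157. The lin-35 count of 2 became 9 without the lin-15B library with the other cutoff, 5 without lin-15B at 20 °C, replicate 2, 5 without lin-35 at 20 °C, replicate 2, and 1 without wild type replicate 1 at 20 °C or at 26 °C. The lin-37 count of 2 ran from 0 to 4. For these reduced fits, too, the shares of all stable regions are not given.

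Between 26 and 20 °C, 3 regions were longer (background 0.605%) and 4 shorter (background 1.27%). The region chrIV:15463468-15469067 (5600 bp, right arm) covered 2803 to 5452 bp in the 8 libraries at 26 °C (median 4048 bp) and 1800 to 3883 bp at 20 °C (median 2902 bp), which overlap. Its log2 difference was 0.63 ± 0.12 (SE; limma, adjusted p = 0.0169). The others with the smallest adjusted p were chrIV:15552401-15557309 (-0.60), chrIV:1902399-1912148 (0.49), chrIV:2434430-2438046 (-1.37) and chrIV:15814142-15817373 (0.50), with adjusted p of 0.0291 to 0.0371. In the 16 fits that each left out 1 library the first call was lost in 0, and these 4 were lost in 8, 10, 9 and 12, in that order. Centring moved the median log2 difference of all stable regions from -0.04 to 0.07, and without it the counts were 0 longer and 3 shorter. Leaving out single libraries gave 1 to 3 longer and 0 to 4 shorter. The lowest counts, 0 shorter, came without lin-37 at 20 °C, replicate 1 or 2. No share of all stable regions stands beside the counts without centring or without single libraries.

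H3K4me3 peaks overlapped 23.4% ± 3.73 of the 502 regions (SD, n = 16). No library had H3K4me3 at 311 of the regions, all 16 had it at 67, and 124 had it in some. The regions with H3K4me3 in all 16 libraries were wider, with a median of 4311 bp against 1874 bp for those with none. These medians were 5161 and 2192 bp on the left arm and 1914 and 1380 bp on the right. Regions with H3K4me3 in some libraries had 3772 bp on the left and 2567.5 bp on the right. The part that width plays in an overlap of at least 1 bp was not tested. Regions named for the longest mean H3K4me3 length included chrIV:2704987-2709668 on the left arm, with 3883 bp ± 321 (SD, n = 16) of H3K4me3 beside 3314 bp ± 567 of H3K9me2, and chrIV:16488689-16508134 on the right, with 5369 bp ± 1258. On the left arm chrIV:2209953-2239934 and chrIV:2664910-2671921 followed with 3351 and 3344 bp, then chrIV:4207652-4217976 and chrIV:2766410-2774045 with 3267 and 3112 bp. On the right arm chrIV:16414824-16426574 and chrIV:17119086-17120999 followed with 4008 and 1319 bp, then chrIV:12830975-12832309 and chrIV:17084139-17085874 with 1298 and 1154 bp. All of these had H3K4me3 in 16 of 16 libraries. Whether the marks sat in the same cells cannot be read from whole larvae.

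More regions carried H3K4me3 on the left arm than on the right. The share was 25.3% ± 3.71 on the left, from 20.6 to 32.9%, and 18.9% ± 4.10 on the right, from 13.2 to 25.7% (SD, n = 16). The left share was higher in 16 of 16 libraries, by 6.41 percentage points on average (two-sided exact permutation by sign flips, p = 3.05e-05, the smallest these libraries can give). The libraries share the same regions, so sign flips measure the spread between libraries only, not between regions. The names of the deposited H3K4me3 lists carry a code, called library set here, whose meaning the labels do not give. In the 8 H3K4me3 libraries of one set, which held 1 library of each group, the difference was 6.61 points. The other 8 carried several different codes, and in them it was 6.21 points. Left-arm regions were also wider. Counted over bases, H3K4me3 peaks covered 7.11% ± 1.82 of the left-arm regions and 7.39% ± 2.262 of the right-arm regions (SD, n = 16), with the left higher in 7 of 16 libraries (exact permutation by sign flips, p = 0.251, adjusted over 5 tests 0.314). Fewer right-arm regions were overlapped, and no difference in the share of bases was shown.

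H3K4me3 covered a larger share of these regions than of the arm bases outside every merged H3K9me2 region. Outside every merged H3K9me2 region, 3.65% ± 0.71 of the bases of the arms of IV were under H3K4me3 peaks, against 7.17% ± 1.88 inside the 502 regions (SD, n = 16). The inside share was higher in 16 of 16 libraries (exact permutation by sign flips, p = 3.05e-05, adjusted p = 5.09e-05). All libraries share the same regions, so the sign flips in this paragraph do not measure the spread between regions. The 502 regions were chosen where peaks were called, while the outside bases may hold stretches where no peak can be called. The part this plays in the difference was not tested. The H3K4me3 peaks inside were wider, with a median of 765 bp ± 61.5 against 627 bp ± 47.5 outside (16 of 16 libraries, adjusted p = 5.09e-05 in the same exact permutation test). Peaks were sorted by overlap, and a wider peak meets a region more easily. The part this plays in the width difference was not tested. Their fold enrichment at the summit, as the authors' peak caller gave it, was not shown to differ, with medians of 5.50 ± 1.51 inside and 5.41 ± 1.23 outside (p = 0.594 in the same exact permutation test). Pooled over the 502 regions, bases with H3K9me2 in every library held less of the H3K4me3 length than of the region length. Those bases took 26.7% ± 1.81 of the H3K4me3 length and made up 32.2% of the regions, with the H3K4me3 share lower in 16 of 16 libraries (adjusted p = 5.09e-05 in the same exact permutation test). The 32.2% includes the 311 regions without H3K4me3. Per region, such bases had a median share of 28.5% where all 16 libraries had H3K4me3 and 24.0% where none had it. Whether the difference lies within or between regions was not tested.

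**Figure D5:**
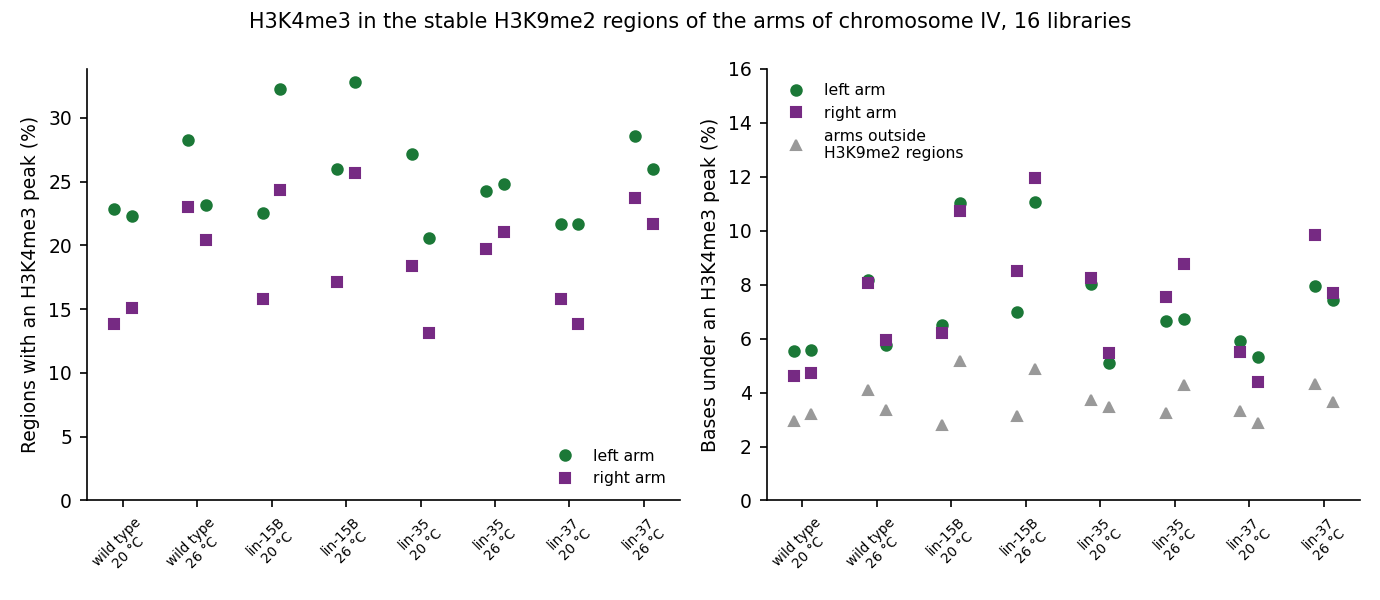
H3K4me3 in the stable regions of the left (circles) and right (squares) arm in each of 16 libraries, as the percentage of regions with a peak (left panel) and the percentage of bases under a peak (right panel), with the bases of the arms outside H3K9me2 regions as triangles. The left arm is higher in every library in the left panel and in 7 of 16 in the right panel, and the triangles are lowest in all 16.

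Stable regions elsewhere differed from those on the arms of IV in H3K4me3. The share of bases under H3K4me3 was 5.79% on the arms of I, 5.74% on II, 5.93% on III, 3.61% on V and 5.28% in the centre of IV, all below the 7.17% of the arms of IV. The arms of IV were higher in 16 of 16 libraries against each other autosome's arms and in 15 of 16 against the centre (exact permutation by sign flips, adjusted p from 3.81e-05 to 6.1e-05). This test, too, measures the spread between libraries that share the same regions, not the spread between regions. The share of regions with a peak ran in another order. It was higher on the arms of I (28.2%), II (25.1%) and III (28.0%) than on IV (23.4%) and lower on V (16.6%) and in the centre of IV (14.4%).

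The share of the 502 regions with H3K4me3 was 22.3% ± 3.10 in wild type, 22.8% ± 3.76 in lin-37, 22.4% ± 2.77 in lin-35 and 26.1% ± 4.97 in lin-15B (SD, n = 4 each). For lin-15B the 4 values were 20.5, 29.9, 23.3 and 30.7%, and for wild type 20.1, 20.1, 26.7 and 22.3%. They overlapped, and no difference of a mutant was shown in the exact permutation test (p from 0.2 to 1, adjusted p of 0.994 or higher). Paired within temperature and library set, lin-15B was above wild type in 4 of 4 pairs, by 0.398 to 9.76 percentage points (exact permutation by sign flips, p = 0.125, the smallest that 4 pairs allow, adjusted over 6 tests 0.375). The lin-35 and lin-37 libraries were each above wild type in 2 of 4 pairs. Both libraries of a pair carried the same set code in 4 lin-15B pairs, 3 lin-35 pairs and 2 lin-37 pairs. In the remaining pairs the codes differed. The lin-15B libraries with the highest shares also had the most H3K4me3 peaks of all 16, 8412 and 8011. As a share of bases the values were 8.99% ± 2.46 in lin-15B and 6.17% ± 1.33 in wild type (exact permutation, p = 0.114, adjusted p = 0.287), and lin-15B was again above wild type in 4 of 4 pairs, by 1.11 to 5.55 points (p = 0.125).

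At 26 °C 25.2% ± 2.82 of the regions had H3K4me3, and at 20 °C 21.6% ± 3.80 (SD, n = 8 each; exact permutation within genotype, p = 0.0617, adjusted p = 0.247). The H3K4me3 lists at 26 °C were longer on average, with 6691 peaks against 6211. When every list was cut to the same number of its highest-scored peaks, the difference was 2.74 percentage points and passed the threshold (p = 0.00926, adjusted p = 0.037 in the same exact permutation test).

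A gain of H3K4me3, meaning a peak in all 4 libraries of a mutant and in none of the 4 of wild type, was seen at 15 of the 502 regions in lin-15B (2.99%, against 1.91% of all stable regions). There were 4 in lin-35 (0.797%, background 1.03%) and 2 in lin-37 (0.398%, background 0.423%). A loss was seen at 1 region in lin-35 (background 0.0907%) and at 0 in lin-15B (background 0%) and lin-37 (background 0.0302%). All the regions gained in lin-35 and lin-37 were also among the 15 of lin-15B, with the same wild-type libraries behind each count. Of the 15, 12 lay on the left arm and 3 on the right. Within the 8 libraries of one set, where a gain needs 2 against 0, lin-15B gained at 27 regions, and within the other 8 at 16. The 1.91% background belongs to the rule of 4 against 0, so no background stands beside these counts.

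The 5 gains in lin-15B with the highest fold enrichment, as the authors' caller gave it, began with the 3205 bp right-arm region described above, at 23.7 ± 5.06 (SD, n = 4). They went on with chrIV:2624715-2626375 at 15.5 ± 2.86, chrIV:799817-803296 at 14.2 ± 4.07, chrIV:804383-808205 at 12.2 ± 2.86 and chrIV:13304118-13306936 at 9.89 ± 4.56. The neighbours at 799817 and 804383 had no H3K4me3 peak in lin-35, and in lin-37 in 0 and 1 of 4 libraries. The region at 13304118 had it in all 4 lin-35 libraries and in 2 of lin-37.

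In lin-35 the highest fold was at chrIV:4655997-4659164 (3168 bp, left arm), with 33.5 ± 6.02 (SD, n = 4), beside 6.41 ± 1.78 in lin-15B. H3K4me3 covered 484, 428, 547 and 735 bp of it in lin-35 and 683, 1033, 642 and 1024 bp in lin-15B, and 1 of 4 lin-37 libraries had a peak. H3K9me2 covered 1714 to 2717 bp there in wild type and 1278 to 2152 bp in lin-35. The other gains in lin-35 were at chrIV:3247791-3252270, chrIV:13304118-13306936 and chrIV:3684778-3686838. The first of these, 4480 bp wide on the left arm, was the only one of the 502 gained in all 3 mutants. It had no peak in wild type, 485 to 1066 bp in lin-37, 645 to 907 bp in lin-35 and 556 to 964 bp in lin-15B. In lin-37 the other gain was at chrIV:1057383-1061843, with a fold of 4.58 ± 2.70. The 1 loss, in lin-35, was at chrIV:923123-924197, where the wild-type fold was 2.44 ± 0.74 (SD, n = 4).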

How the data were processed

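H3K9me2 and H3K4me3 peak lists of 32 libraries were used of 78 samples in the series. H3K27me3, H3K36me3 and input samples were not used here. Reads were aligned with Bowtie 1.1.2 to build ce10 and peaks called with MACS2 per library, per the submitters' processing notes. A version of MACS2 is not given in the sources used here. The deposited H3K4me3 lists give a score, a fold ratio over background at the summit and −log10 p and q values from the authors' caller. The deposited H3K9me2 lists are broad peaks whose score was used for ranks within a list only. The lists hold no counts, so depth and its precision are unknown.

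Overlapping peaks were merged and covered bases counted per region. Region names follow a rule of longest covered length, highest rank, smallest adjusted p, H3K4me3 gain or loss by fold, longest H3K4me3 and closeness to a threshold. The region set, lists and tests were chosen with earlier results of these data known. Library values were compared by two-sided exact permutation tests (Python with numpy 2.4.6). Log2 covered length was compared by limma 3.58.1 in R 4.3.3 over all 3307 stable regions, with Benjamini-Hochberg adjustment over all of them. The scripts were tested on simulated data. Shares of bases, H3K4me3 peaks inside and outside the regions, comparisons with other arms and pairs by library set were added after seeing the data. Alternatives were another overlap minimum, stricter peaks, equal peak numbers, wider merging, other arm limits, 15 lists, no centring, a length minimum, library sets and leaving out each library. No sequence or gene is given, since no ce10 genome was used here.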

Additional observations from a re-analysis of the deposited data

Results flagged for a closer look

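The left-arm share of the H3K9me2 covered length was 80.3% in wild type at 20 °C, replicate 1, and 79.6 to 79.7% in the other 3 wild-type libraries. Its gap to the nearest of them was 0.923 of the whole range, above Dixon's critical value for 4 libraries. In all, 20 sets of 4 libraries were looked at, of which chance alone marks about 1 in 20. The cause was not tested.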

How the results depend on the processing

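The left-arm excess of regions with H3K4me3 kept its direction and stayed past the threshold in every alternative run (6.23 to 6.65 points leaving out single libraries), as did the share of bases inside against outside (3.33 to 3.64 points). The same-numbered replicates did not pair: correlations of their deviations ran from -0.267 to 0.349 for H3K9me2 and from -0.219 to 0.318 for H3K4me3. With the replicate block, 1 region was shorter in lin-37, 4 in lin-35 and 35 in lin-15B, and the block changed no call among the tests of library totals. The mean ratio of left-arm to right-arm covered length was 4.22 with equal peak numbers and 4.32 with the top 75% of peaks. Differences that passed no test changed sign as follows. The lin-35 difference in regions with H3K4me3 was -0.816 points with equal peak numbers, -1.20 with the top 75% of peaks and -0.598 in the other 8 libraries, and that of lin-37 was -0.126 with the top 75% and -0.199 in one set. The lin-35 difference in left-arm share was 0.096 with the top 75% and 0.018 with 15 lists. With equal peak numbers the 26 °C difference in H3K4me3 was 2.74 points and passed.

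Counts of regions longer or shorter moved too. These counts, those with the replicate block and those of H3K4me3 gains and losses carry no share of all stable regions at that setting. In lin-15B 5 were longer with equal peak numbers, 2 with the top 75%, 16 with 15 lists and 6 without centring, and 17 were shorter with the top 75%. In lin-35 4 were shorter with a 200 bp overlap, with equal peak numbers and with the top 75%, 5 with 500 bp merging and 9 with 15 lists, where 1 was longer. In lin-37 1 was shorter with the top 75% and with 500 bp merging, and 2 were longer with 15 lists. For temperature 2 were shorter with equal peak numbers and with the top 75%, and 0 longer without centring. H3K4me3 losses in lin-15B were 1 with equal peak numbers, 2 with 3 of 4 against 1 of 4, 5 within 26 °C and 8 in the other 8 libraries. In lin-35 losses were 0 with equal peak numbers and the top 75%, 8 with 3 of 4, 7 within 26 °C and 6 in the other 8, and gains 7 with 3 of 4 and 9 within 26 °C. In lin-37 losses were 4 with 3 of 4, 4 within 20 °C, 3 within 26 °C, 3 in one set and 2 in the other 8. Gains in lin-37 were 6 with 3 of 4, 4 within 20 °C, 13 within 26 °C and 6 in the other 8. In lin-15B 27 were gained in one set.

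Leaving out single libraries gave these ranges, with no share of all stable regions beside the counts. Differences in covered length ran from -130 to 0.961 kb (lin-15B), -84.2 to 46.4 (lin-35) and -123 to 7.27 (lin-37). Differences in left-arm share ran from -0.311 to 0.239 points for temperature, -0.460 to 0.111 in lin-35 and -0.441 to 0.0189 in lin-37, and in the share of all covered length from -0.472 to 0.347 in lin-35. Differences in regions with H3K4me3 ran from -0.681 to 1.51 points in lin-35 and -0.996 to 1.91 in lin-37. The difference in bases with H3K4me3 ran from -0.0239 to 1.19 points in lin-37 and from 0.685 to 1.81 for temperature. Shorter regions numbered 18 to 45 in lin-15B, 1 to 9 in lin-35, 0 to 4 in lin-37 and 0 to 4 for 26 against 20 °C. Longer ones numbered 5 to 15 in lin-15B, 0 to 1 in lin-37 and 1 to 3 for 26 against 20 °C. H3K4me3 losses numbered 1 to 4 in lin-35, and 0 to 1 in each of lin-15B and lin-37. Where values moved with a setting, the cause was not tested. Peak lists without counts limit every statement to what was called.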
